A study of Mus musculus with 10 samples.

Results

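Protein depalmitoylases are serine hydrolases that cut the fatty acid palmitate from cysteines of other proteins. The genes described here are Lypla1 and 6 others listed with it by symbol, Lypla2, Lyplal1, Abhd17a, Abhd17b, Abhd17c and Abhd10, which is 7 of the 48709 genes in the count tables. All 7 were found and all 7 passed the filter on low counts that left 16884 genes to be tested. The set was chosen by the measured log2 fold change of Lypla1 against control in these same libraries, where its rise was among the largest. Its differences from control are therefore given as a description without a test.

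The RNA came from mouse hippocampal neurons in primary culture. Each culture received lipid nanoparticles at 10 days in vitro and RNA was isolated 48 h later. The nanoparticles held scramble RNA in control (n = 2 libraries), an inhibitor of the microRNA miR-409-5p in the anti-miR-409-5p group (n = 4) or an inhibitor of miR-501-3p in the anti-miR-501-3p group (n = 4). All 3 groups thus share the nanoparticle and an RNA cargo, and no library without nanoparticles was analysed here. The labels name no strain, age, dose or sex, and do not say whether libraries with the same treatment were separate cultures. The p-values therefore measure the spread between libraries, which may be technical. Mature microRNAs were not measured, so the loss of either microRNA was not checked.

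S-palmitoylation anchors proteins to membranes, and it is reversible. Acyltransferases of the DHHC family attach palmitate, and depalmitoylases remove it, so that a protein can leave a membrane and return. In neurons the cycle acts on scaffolds, receptors and small GTPases of the synapse, among them the scaffold PSD-95 and Ras proteins. Lypla1 and Lypla2 encode the acyl protein thioesterases APT1 and APT2. Lyplal1 encodes a relative of both with a poorly known role, the 3 Abhd17 genes encode membrane-bound depalmitoylases that act on PSD-95 and N-Ras, and Abhd10 encodes a depalmitoylase of mitochondria. In hippocampal neurons, Lypla1 messenger RNA is known as a dendritic target of a brain microRNA other than those inhibited here.

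The microRNAs are shown because a messenger RNA with a match to bases 2 to 8, the seed, is a candidate target. The seed is in capitals, and sequences and positions are those of RefSeq for GRCm38.p6. The mature miR-409-5p sequence lies at chr12:109743172-109743194 on the plus strand and that of miR-501-3p at chrX:7241270-7241291 on the minus strand.
miR-409-5p: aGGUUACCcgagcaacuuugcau
miR-501-3p: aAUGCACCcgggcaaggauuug
The 3' UTRs were searched on the transcript's strand for GGTAACC or GTAACCA (miR-409-5p) and for GGTGCAT or GTGCATA (miR-501-3p). The 2 heptamers of each pair overlap, and a match to both is an octamer. No listed gene held a miR-409-5p heptamer in its longest 3' UTR, against 9.85% of 14211 genes with a 3' UTR. A miR-501-3p heptamer was found in 1 of the 7, Lypla1, against 13.0% of those genes, and UTR lengths differ between genes. The counts over the 7 were the same when all annotated 3' UTRs were read. The Lypla1 match began at base 709 of its 1723-base UTR, at chr1:4845725-4845731 (mm10, plus strand), shown in capitals with its flanks (chr1:4845714-4845742).
Lypla1 match to the miR-501-3p seed: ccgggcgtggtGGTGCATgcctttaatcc
These letters resemble the mouse B1 repeat. The 15 bases tggtGGTGCATgcct recurred in 22 (2.12%) of the 1036 genes whose longest 3' UTR held GGTGCAT. A match of letters is a description and not evidence of binding.

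The nucleotides around the active serine codon are shown for the 6 genes of the Lypla and Abhd17 groups, as an example of how close relatives differ in base composition. Each stretch is 45 bases of coding sequence, with the serine codon of the glycine-any-serine-any-glycine motif in capitals. Where several motifs were found, the last is shown. Abhd10 belongs to neither group and is not shown. Of the 45 bases around its last motif (codon 143), 39 are shared with the antisense gene Gm15591, and the GC content there was 55.6%.
Lypla1 codon 119: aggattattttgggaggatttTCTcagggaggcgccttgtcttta
Lypla2 codon 122: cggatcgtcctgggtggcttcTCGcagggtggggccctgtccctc
Lyplal1 codon 125: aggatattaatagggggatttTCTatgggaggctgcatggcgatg
Abhd17a codon 190: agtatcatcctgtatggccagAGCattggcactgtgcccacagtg
Abhd17b codon 170: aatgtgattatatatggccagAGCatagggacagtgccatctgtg
Abhd17c codon 202: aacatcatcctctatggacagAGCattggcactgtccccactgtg
The GC content of these stretches was 44.4% for Lypla1 and 71.1% for Lypla2, and 53.3%, 44.4% and 51.1% for Abhd17a, Abhd17b and Abhd17c. Over whole transcripts, GC content was 37.7% for Abhd17b, 37.9% for Lypla1, 41.9% for Abhd10, 44.8% for Lyplal1, 51.1% for Abhd17c, 61.4% for Lypla2 and 64.6% for Abhd17a. Close relatives thus stood at opposite ends, Lypla1 against Lypla2 and Abhd17b against Abhd17a. In the third base of codons the Abhd17 genes ran from 41.0% (Abhd17b) to 75.4% (Abhd17a) and 78.1% (Abhd17c). Their coding bases nevertheless matched at 70.0% to 76.3% of aligned positions, against 58.4% to 67.1% for the other pairs of the 7 genes. Lypla1 and Lypla2 matched at 65.0% of 680 aligned bases, within the range of those other pairs. Gaps were left out of these shares, and each pair was aligned over its whole length. A share in that range therefore does not show that Lypla1 and Lypla2 are no closer than the other pairs.

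The libraries held 22254788 to 32096808 gene counts, and no 2 were identical. Sums of 8 neuron markers were 6036 to 6080 in control, 6214 to 6439 under anti-miR-409-5p and 6090 to 6393 under anti-miR-501-3p, in CPM (counts scaled to a common library size, after TMM scaling of library size, as in all values below). Astrocyte markers were also present, with 6 of 6 above 1 CPM and sums of 1738 to 1769, 1804 to 1848 and 1755 to 1792. The neuron sums of both controls lay below those of all anti-miR libraries. The astrocyte sums of both controls lay below those of all anti-miR-409-5p libraries. Single markers went both ways. Rbfox3, Tubb3, Syn1 and Slc17a7 had a higher mean in control than in either anti-miR group, and Map2, Snap25, Gad1 and Gad2 a lower one. Of the astrocyte markers, Gfap, Aldh1l1 and S100b were higher in control, and Aqp4, Slc1a3 and Gja1 lower. The part of these markers in the results was not tested. Microglia sums were 13.6 to 18.1 with 3 of 6 markers above 1 CPM. Oligodendrocyte lineage sums (5 of 6 above 1 CPM, Mag at or near 0) were 122 to 189 in control, 124 to 156 under anti-miR-409-5p and 97.8 to 156 under anti-miR-501-3p. Fibroblast and vascular sums (4 of 6, Cldn5 at or near 0) were 220 to 318, 201 to 270 and 257 to 322. In each library the slope of the log2 level on transcript GC content was taken as the deviation from the mean over libraries. It was 0.203 and 0.272 per 10 points of GC in control and lay between -0.131 and 0.0384 in the 8 anti-miR libraries, so that the slope and the treatment cannot be told apart. Each difference from control is therefore also given with the trend on GC content and length removed.

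What a Lypla1 count rests on differs from the other genes. Lypla1 (ENSMUSG00000025903, mm10 chromosome 1, 4807788 to 4848410, plus strand) shares 629 of its 7145 annotated exon bases with Gm37988 (ENSMUSG00000104217), a protein-coding annotation on the same strand that spans 4807892 to 4886770. Gm37988 has 825 exon bases, of which 0 are outside other genes, and it had 0 counts in all 10 libraries. Among 1063 genes with no exon base of their own, 1008 (94.8%) had 0 counts in all libraries, against 3052 of 15713 (19.4%) protein-coding genes that share no base. Whether reads on shared bases were left out for Lypla1 too is not given in the sources used here.

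Of the 6516 bases that Lypla1 shares with no other gene, 107 are coding and 2054 are UTR of coding transcripts. Another 4355 are only in transcripts not annotated as protein-coding, 3949 of these in a retained-intron transcript. This class also holds Lypla1-205, annotated as a transcript of nonsense-mediated decay. Of the 690 coding bases of the main transcript, Lypla1-201, 83 (12.0%) are its own, in the stretches below, at chr1:4808455-4808486 and chr1:4844963-4845013. They are shown because these are the coding letters that tell Lypla1 from Gm37988.
Lypla1 coding bases 70 to 101: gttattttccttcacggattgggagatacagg
Lypla1 coding bases 640 to 690: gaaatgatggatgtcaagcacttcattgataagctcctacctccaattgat
The 45 bases around the active serine, above, are all shared with Gm37988. Of 2458 runs of 50 bases (the read length) in Lypla1-201, 611 (24.9%) also occur in transcripts of other genes, 534 of them in Gm37988. Of the other 6 genes, Abhd10 had such runs, 91 of 2799 (3.25%), all in the antisense gene Gm15591, and the remaining 5 had 0. A gene-level count cannot tell the last exon of Lypla1 from its retained intron.

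**Figure D1:**
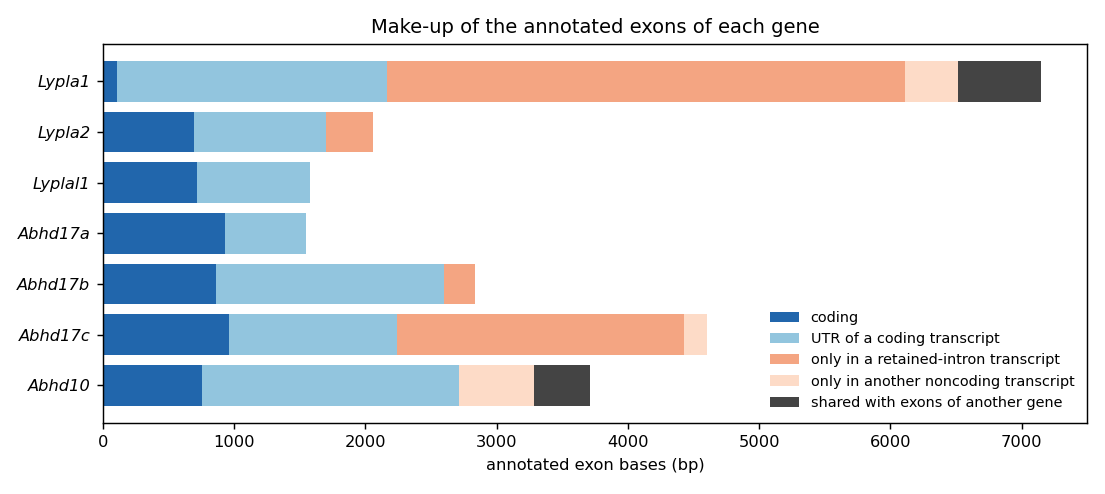
Annotated exon bases (bp, horizontal axis) of each of the 7 genes, split into coding, UTR of a coding transcript, bases found only in a retained-intron transcript or another noncoding transcript, and bases shared with exons of another gene. Noncoding here means not annotated as protein-coding, which includes transcripts of nonsense-mediated decay. Lypla1 has the longest annotation, 7145 bp, of which 107 bp are coding and its own.

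Lypla1, the gene of acyl protein thioesterase APT1, was lower in control than in either anti-miR group. Its raw counts were 203 and 232 in control, 337 to 822 under anti-miR-409-5p and 617 to 790 under anti-miR-501-3p. Control libraries 1 and 2 stood at 7.22 and 7.75 CPM, anti-miR-409-5p replicates 1 to 4 at 12.6, 20.4, 25.6 and 26.1 CPM, and anti-miR-501-3p replicates 1 to 4 at 21.4, 26.6, 27.3 and 26.8 CPM. Every anti-miR library lay above both controls, and anti-miR-409-5p replicate 1 lay nearest to them. In bulk RNA, more cells that express a gene and more RNA per cell cannot be told apart. The mean was 7.49 ± 0.374 CPM (SD, n = 2) in control, 21.2 ± 6.27 (n = 4) and 25.5 ± 2.74 (n = 4).

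The log2 fold change of Lypla1 against control was 1.498 ± 0.31 (SE, edgeR) under anti-miR-409-5p and 1.77 ± 0.31 under anti-miR-501-3p, rank 43 and rank 33 from the highest of 16884 tested genes. Both comparisons use the same 2 control libraries. With the trend on GC content and length removed, the differences were 0.99 ± 0.23 and 1.19 ± 0.23. Within the anti-miR-409-5p group the library with the highest GC slope (replicate 1, 0.0384) had the lowest Lypla1 level, and that with the lowest slope (replicate 4, -0.109) had the highest. The part of the GC slope in the Lypla1 difference was not tested beyond that removal. In the authors' deposited tables the log2 fold changes of Lypla1 were 1.51 and 1.77.

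The genes beside Lypla1 on the chromosome gave other values. Mrpl15, a mitochondrial ribosomal protein gene upstream (4773206 to 4785739), differed from control by -0.05 ± 0.05 and -0.07 ± 0.05 on the log2 scale (edgeR adjusted p = 0.487 and 0.306). Tcea1, a transcription elongation factor gene downstream (4857814 to 4897909), rose by 0.25 ± 0.09 and 0.29 ± 0.09 (edgeR adjusted p = 0.0425 and 0.0153). With the GC and length trend removed, Tcea1 stood at -0.0095 and 0.0039. Mrpl15 then stood at -0.149 and -0.175, in the same order of comparisons (edgeR adjusted p = 0.0579 and 0.0167). The latter decrease was thus called, although Mrpl15 was not called as counted.

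**Figure D2:**
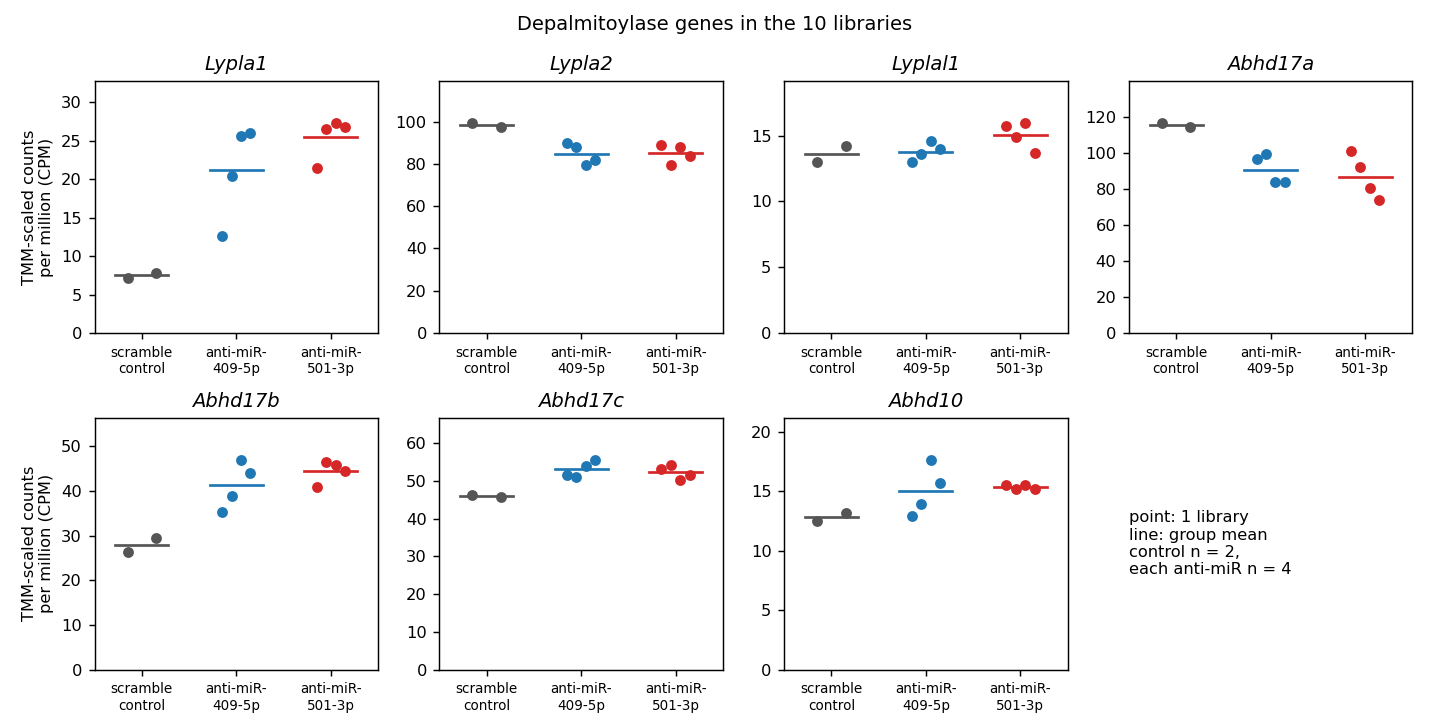
TMM-scaled CPM (vertical axes, each from 0) of the 7 genes in scramble control (n = 2), anti-miR-409-5p (n = 4) and anti-miR-501-3p (n = 4). Points are libraries and lines are group means. Lypla1 goes from 7.22 and 7.75 CPM in control to 12.6 to 27.3 CPM in the 8 anti-miR libraries, and Lyplal1 is the gene whose groups overlap in both comparisons.

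Of the 6 genes other than Lypla1, edgeR called 3 (2 higher, 1 lower) in the anti-miR-409-5p comparison, where 27.8% of all tested genes were called (15.6% higher, 12.2% lower). Under anti-miR-501-3p it called 5 of 6, 3 higher and 2 lower, where 33% of all tested genes were called (17.6% higher, 15.4% lower). A called gene had a Benjamini-Hochberg adjusted p under 0.05 over all tested genes. How often control and anti-miR libraries lay apart over all tested genes was not counted. A lack of overlap is therefore a description and not a trait particular to these genes. Without control 1 the count under anti-miR-501-3p was 1, and without control 2 or without anti-miR-501-3p replicate 3 it was 3. The median log2 fold change of the 6 was 0.11 and 0.17, against -0.01 and -0.01 over all tested genes. With the GC and length trend removed, 1 of 6, Abhd17c, was called in each comparison, where 5.38% and 8.03% of all tested genes were called. The median of the 6 was then 0.0002 and 0.05.

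Lypla2, the gene of the thioesterase APT2 (ENSMUSG00000028670, chromosome 4, 135968224 to 135972626, minus strand), was lower in all 8 anti-miR libraries. The controls stood at 99.4 and 97.6 CPM, anti-miR-409-5p at 89.7, 87.8, 79.3 and 81.8 CPM, and anti-miR-501-3p at 88.8, 79.5, 88.2 and 83.8 CPM. No anti-miR library reached either control. Lypla2 fell by 0.22 ± 0.05 (log2, edgeR adjusted p = 0.00629) and by 0.21 ± 0.05 (edgeR adjusted p = 0.00586). Neither call held without control 1 (edgeR adjusted p = 0.109 and 0.101), nor after removal of the GC and length trend, when the values were 0.04 ± 0.04 and 0.06 ± 0.04 and so turned sign. With a surrogate variable the call under anti-miR-409-5p also ended (edgeR adjusted p = 0.187). As counted, Lypla1 was thus higher and Lypla2 lower than control in every anti-miR library.

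Lyplal1 (ENSMUSG00000039246, chromosome 1, 186087731 to 186117310, minus strand) gave no call in either comparison. It stood at 13.0 and 14.2 CPM in control, at 13.0, 13.6, 14.6 and 13.9 CPM under anti-miR-409-5p and at 15.7, 14.9, 16.0 and 13.7 CPM under anti-miR-501-3p. Both anti-miR groups overlapped control. The log2 fold changes were 0.02 ± 0.08 and 0.14 ± 0.08 (edgeR adjusted p = 0.910 and 0.178). With the GC and length trend removed they were -0.07 ± 0.08 and 0.04 ± 0.08, and neither was called.

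The membrane-bound enzymes of the Abhd17 genes did not move as a group, since Abhd17a was lower and Abhd17b and Abhd17c were higher in all 8 anti-miR libraries. Abhd17a (ENSMUSG00000003346, chromosome 10, 80583654 to 80590341, minus strand) stood at 117 and 115 CPM in control, at 96.6, 99.2, 83.7 and 83.7 CPM under anti-miR-409-5p, and at 101, 92.2, 80.4 and 74.1 CPM under anti-miR-501-3p. It fell by 0.41 ± 0.12 under anti-miR-501-3p (edgeR adjusted p = 0.0257). Under anti-miR-409-5p the log2 fold change was -0.35 ± 0.12 and missed the threshold in edgeR (adjusted p = 0.0569), while DESeq2 called it (adjusted p = 0.0376), as did the authors' deposited table (3.8e-05).

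Leaving out control 1 (edgeR adjusted p = 0.177), control 2 (0.0987), replicate 3 of anti-miR-501-3p (0.0506) or the low-count filter (0.0891), or adding a surrogate variable (0.0875), ended the call for Abhd17a under anti-miR-501-3p. The edgeR value under anti-miR-409-5p passed with only the 2 groups compared (adjusted p = 0.00437), with upper-quartile scaling (0.0452) and with total counts (0.0445). It also passed when anti-miR-409-5p replicate 2 (adjusted p = 0.0465), anti-miR-501-3p replicate 1 (0.0232) or anti-miR-501-3p replicate 4 (0.0279) was left out. After removal of the GC and length trend, Abhd17a differed from control by -0.06 ± 0.05 and -0.08 ± 0.05, and neither was called.

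Abhd17b (ENSMUSG00000047368, chromosome 19, 21653185 to 21685637, plus strand) was the gene with the next largest rise after Lypla1 among the 7. The controls stood at 26.4 and 29.6 CPM, anti-miR-409-5p at 35.3, 38.9, 47.0 and 44.1 CPM, and anti-miR-501-3p at 40.8, 46.5, 45.7 and 44.4 CPM. No anti-miR library overlapped control. Abhd17b rose by 0.56 ± 0.10 (log2, edgeR adjusted p = 0.00226) and by 0.66 ± 0.10 (edgeR adjusted p = 5.37e-04). Neither call held once the GC and length trend was removed, with values of 0.06 ± 0.05 and 0.08 ± 0.05 (edgeR adjusted p = 0.645 and 0.407), and with a surrogate variable the call under anti-miR-409-5p ended (0.0641).

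Abhd17c (ENSMUSG00000038459, chromosome 7, 84109356 to 84151893, minus strand) had a smaller rise that was still called after GC and length correction. It stood at 46.2 and 45.6 CPM in control, at 51.6, 51.1, 53.9 and 55.6 CPM under anti-miR-409-5p and at 53.2, 54.1, 50.2 and 51.5 CPM under anti-miR-501-3p. All 8 anti-miR libraries lay above both controls. Abhd17c rose by 0.21 ± 0.05 (log2, edgeR adjusted p = 0.00479) and by 0.19 ± 0.05 (edgeR adjusted p = 0.00713). With the trend removed the rises were 0.27 ± 0.05 (edgeR adjusted p = 8.51e-04) and 0.25 ± 0.05 (9.69e-04), for a transcript whose GC content of 51.1% has 4 of the listed genes below it and 2 above. The call under anti-miR-409-5p ended with a surrogate variable (edgeR adjusted p = 0.141), and leaving out control 1 ended that under anti-miR-501-3p (0.0504).

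Abhd10, the gene of the mitochondrial enzyme (ENSMUSG00000033157, chromosome 16, 45729725 to 45742955, minus strand), shares 426 exon bases with Gm15591 on the other strand. The strand setting of the counts is not given in the sources used here. It stood at 12.5 and 13.2 CPM in control, at 12.9, 13.9, 17.7 and 15.7 CPM under anti-miR-409-5p and at 15.6, 15.2, 15.5 and 15.2 CPM under anti-miR-501-3p. Anti-miR-409-5p replicate 1 lay between the controls, whereas no anti-miR-501-3p library overlapped them. Abhd10 rose by 0.26 ± 0.09 under anti-miR-501-3p (edgeR adjusted p = 0.0425), and the value under anti-miR-409-5p was 0.22 ± 0.10 (edgeR adjusted p = 0.0880).

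The call for Abhd10 in the anti-miR-501-3p group ended when either control or any anti-miR-501-3p library was left out. The edgeR adjusted p was 0.242 without control 1, 0.0893 without control 2 and 0.0532 to 0.0780 without an anti-miR-501-3p replicate. It also ended with upper-quartile scaling (0.0700), with total counts (0.0813) and with a surrogate variable (0.206). Under anti-miR-409-5p Abhd10 passed when replicate 1 of that group was left out (edgeR adjusted p = 0.0161) and without the low-count filter (0.0437). After removal of the GC and length trend the values were -0.04 and -0.03, with the sign turned in both.

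**Figure D3:**
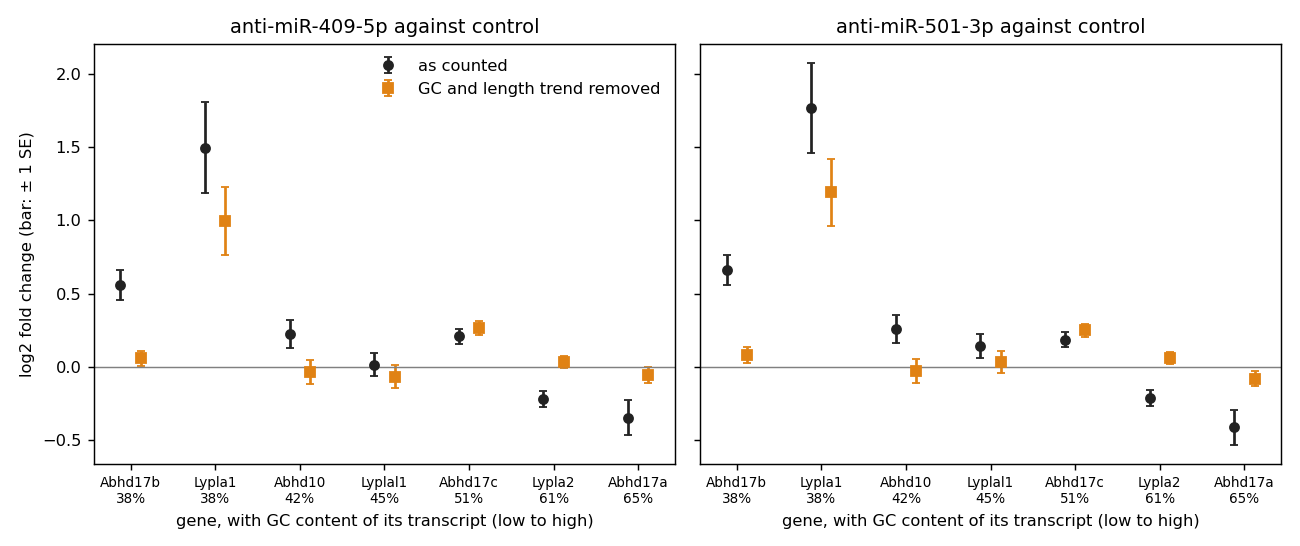
Log2 fold change against control (vertical axis, ± 1 SE) of the 7 genes in order of transcript GC content (horizontal axis), for anti-miR-409-5p (left) and anti-miR-501-3p (right). Black circles are as counted and orange squares have the GC and length trend removed. The orange values of 5 genes lie between -0.08 and 0.08, those of Abhd17c are 0.27 and 0.25, and those of Lypla1 are 0.99 and 1.19.

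Across the 7 genes the fold change followed transcript GC content, with a Spearman correlation of -0.929 in each comparison with control, against -0.709 and -0.713 over all tested genes. These are descriptions over genes that share the same libraries. The 7 include Lypla1, whose fold change against control was used to choose the set. The plot of levels by GC slope shows the library values behind these numbers.

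**Figure D4:**
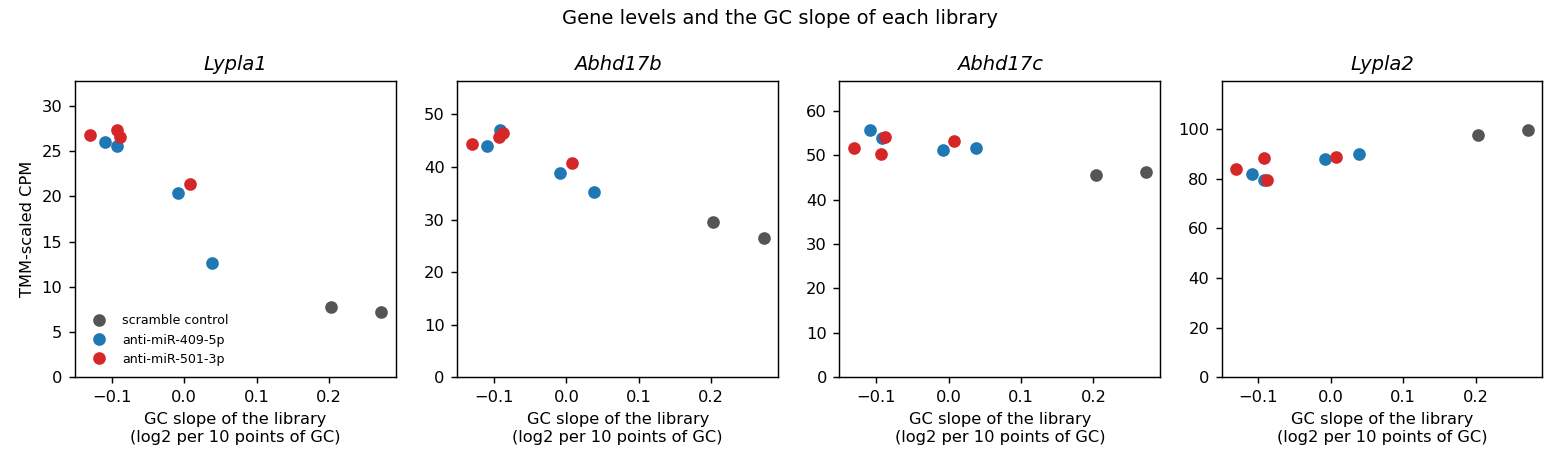
TMM-scaled CPM of Lypla1, Abhd17b, Abhd17c and Lypla2 (vertical axes, from 0) against the GC slope of each library (log2 per 10 points of GC, horizontal axes). Points are libraries. The controls, at slopes of 0.203 and 0.272, lie apart from the 8 anti-miR libraries in every panel.

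Per length of exon not shared with other genes, Abhd17a and Lypla2 were the most abundant of the 7 in control. The control levels were 74.7 ± 0.928 CPM per kb (SD, n = 2) for Abhd17a, 48.0 ± 0.590 for Lypla2, 9.97 ± 0.0834 for Abhd17c, 9.88 ± 0.782 for Abhd17b, 8.62 ± 0.528 for Lyplal1, 3.90 ± 0.145 for Abhd10 and 1.15 ± 0.0574 for Lypla1. Of neighbours in that order, Abhd17c and Abhd17b were the pair whose control libraries overlapped. In the anti-miR groups the order was the same, apart from Abhd17b passing Abhd17c, at 14.6 ± 1.85 against 11.5 ± 0.453 CPM per kb under anti-miR-409-5p (n = 4) and 15.7 ± 0.898 against 11.3 ± 0.373 under anti-miR-501-3p (n = 4).

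The places of Lypla1 and of the Abhd17 genes depended on the exon length used. On unshared exon bases it was the lowest of the 7 in every group, at 3.25 ± 0.962 CPM per kb under anti-miR-409-5p, where its libraries overlapped those of Abhd10 (4.58 ± 0.633), and 3.92 ± 0.421 under anti-miR-501-3p, where they did not (4.68 ± 0.0643). When only unshared bases of protein-coding transcripts were counted as length, a choice made after the data were seen, Lypla1 stood at 3.46 ± 0.173 CPM per kb in control and was still last. It stood at 9.80 ± 2.90 and 11.8 ± 1.27 in the anti-miR groups and was then the fifth, above Lyplal1 (8.73 ± 0.435 and 9.54 ± 0.654) and Abhd10 (5.55 ± 0.767 and 5.67 ± 0.0779). With that length Abhd17c stood at 20.5 ± 0.172 CPM per kb in control, 23.7 ± 0.932 and 23.3 ± 0.768, and lay above Abhd17b (10.8 ± 0.852, 15.9 ± 2.01 and 17.1 ± 0.979) in all 3 groups, so that the crossing of the pair was not seen.

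In the direct comparison of the anti-miRs, which uses no control library, edgeR called 0 of the 7 genes and 0% of all tested genes. At an unadjusted p under 0.05 there were 992 genes, and DESeq2 called 3. For Lypla1 the log2 difference, anti-miR-501-3p minus anti-miR-409-5p, was 0.27 ± 0.21 (edgeR adjusted p = 0.891), and 3 of the 4 anti-miR-501-3p libraries lay above all anti-miR-409-5p libraries. The other 6 differed by -0.06 to 0.13 (lowest edgeR adjusted p = 0.871, for Lyplal1). The groups overlapped for all 7 genes.

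The libraries of the anti-miR groups that carry the same replicate number deviated together in 4 of 4 pairs (r = 0.121 to 0.375), and with the replicate number as a block edgeR called 252 genes (1.49%) in the direct comparison. Lypla1 was higher under anti-miR-501-3p in 4 of 4 same-numbered pairs, and its blocked difference was 0.29 ± 0.13 (edgeR adjusted p = 0.463). None of the 7 genes was called by edgeR with the block. Abhd17b (0.11 ± 0.04), Abhd17a (-0.07 ± 0.03) and Lyplal1 (0.12 ± 0.06) had an unadjusted p under 0.05, with adjusted p of 0.212, 0.348 and 0.360 (edgeR). A call for these genes was thus not made in either fit, which does not show that the inhibitors act alike on them.

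The genes whose log2 CPM ran most like that of Lypla1 were sought among 12810 genes with a mean log2 CPM of at least 1. They were Rnf11, a ubiquitin ligase gene (Pearson r = 0.998 over the 10 libraries), Ids, the gene of the lysosomal iduronate sulfatase (0.997), Rab11a, a recycling endosome GTPase gene (0.997), Micu3, a regulator of the mitochondrial calcium channel (0.996), and Zc2hc1a (0.996). With group means removed, r was 0.995, 0.985, 0.981, 0.983 and 0.976. Their transcripts had GC contents of 35.7% to 42.6%. Their rises against control were smaller than that of Lypla1, at 0.49 to 0.63 and 0.58 to 0.73 on the log2 scale.

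Among the listed genes, Abhd17b was most like Lypla1 (r = 0.983, rank 129), with r = 0.903 once group means were removed. Abhd17c and Abhd10 each had r = 0.846, Lyplal1 0.530, Abhd17a -0.857 and Lypla2 -0.888. These correlations are descriptions, and all libraries share the difference in GC slope.

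The acyltransferases, which act opposite to the depalmitoylases, moved in both directions. Of 27 listed DHHC acyltransferases and accessory proteins 24 were tested. Zdhhc11, Zdhhc19 and Zdhhc25 were not. Under anti-miR-409-5p 5 rose and 4 fell, and under anti-miR-501-3p 8 rose and 5 fell, where 27.8% and 33% of all tested genes were called. The median log2 fold changes were -0.02 and -0.04, and 0.01 and 0.03 with the GC and length trend removed. Zdhhc2, an acyltransferase of PSD-95, rose by 0.48 ± 0.06 and 0.59 ± 0.06 (edgeR adjusted p = 6.88e-05 and 8.6e-06).

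Zdhhc21 rose by 0.51 ± 0.07 and 0.59 ± 0.07 and Zdhhc20 by 0.50 ± 0.07 and 0.54 ± 0.07, all called by edgeR. Zdhhc15, another acyltransferase of PSD-95, rose by 0.33 ± 0.06 under anti-miR-501-3p (edgeR adjusted p = 4.61e-04), and its value of 0.15 ± 0.06 in the anti-miR-409-5p group missed the threshold (0.0610). With the GC and length trend removed, 2 acyltransferase-list genes were higher under anti-miR-409-5p, and 2 were higher and 1 was lower under anti-miR-501-3p, where 5.38% and 8.03% of all tested genes were called. Zdhhc2 was called in both (0.24 ± 0.04 and 0.31 ± 0.04, edgeR adjusted p = 0.00106 and 4.59e-05).

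The lysosomal thioesterases, which strip palmitate from proteins in degradation, gave 1 call of 2 under anti-miR-501-3p, where 33% of all tested genes were called, and 0 under anti-miR-409-5p. Ppt1 differed from control by 0.08 ± 0.05 and 0.04 ± 0.05 (log2, edgeR adjusted p = 0.260 and 0.563). Ppt2 fell by 0.21 ± 0.08 under anti-miR-501-3p (edgeR adjusted p = 0.0394), and its value of -0.20 ± 0.08 in the anti-miR-409-5p group missed the threshold (0.0577). With the trend removed Ppt1 stood at -0.03 and -0.09 and Ppt2 at -0.02 and -0.03, none of them called by edgeR. The call under anti-miR-501-3p was lost in 14 of 20 alternatives, among them DESeq2, no low-count filter, a surrogate variable, and leaving out either control, any anti-miR-501-3p library or replicate 2 or 3 of anti-miR-409-5p.

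Among other ABHD hydrolases, relatives by fold with varied substrates, 15 of 16 were tested (Abhd16b was not), and 2 rose and 3 fell in each comparison, where 27.8% and 33% of all tested genes were called. Abhd18 rose by 0.37 ± 0.08 and 0.50 ± 0.08 and Abhd13 by 0.27 ± 0.05 and 0.31 ± 0.05, while Abhd8 fell by 0.31 ± 0.06 and 0.34 ± 0.06, all called by edgeR. Abhd4, a hydrolase of N-acyl phospholipids, fell by 0.16 ± 0.05 and 0.24 ± 0.05, also called. None of the 15 was called by edgeR once the GC and length trend was removed.

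Of 16 genes for palmitoylated neuronal proteins, all tested, 8 rose and 2 fell under anti-miR-409-5p, and 8 rose and 4 fell under anti-miR-501-3p, where 27.8% and 33% of all tested genes were called. The medians were 0.19 and 0.20 as counted, and 0.03 and 0.04 with the GC and length trend removed. Cdc42, a small GTPase of the actin skeleton, rose by 0.26 ± 0.04 and 0.33 ± 0.04. Snap25, a membrane fusion protein, rose by 0.32 ± 0.05 and 0.34 ± 0.05, and Hras, a Ras GTPase, fell by 0.22 ± 0.04 and 0.20 ± 0.04, all called by edgeR. With the GC and length trend removed, edgeR called 5 of them in the anti-miR-409-5p group (3 higher) and 6 in the anti-miR-501-3p group (4 higher), where 5.38% and 8.03% of all tested genes were called. Snap25 was called in both, at 0.16 ± 0.03 and 0.15 ± 0.03.

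**Figure D5:**
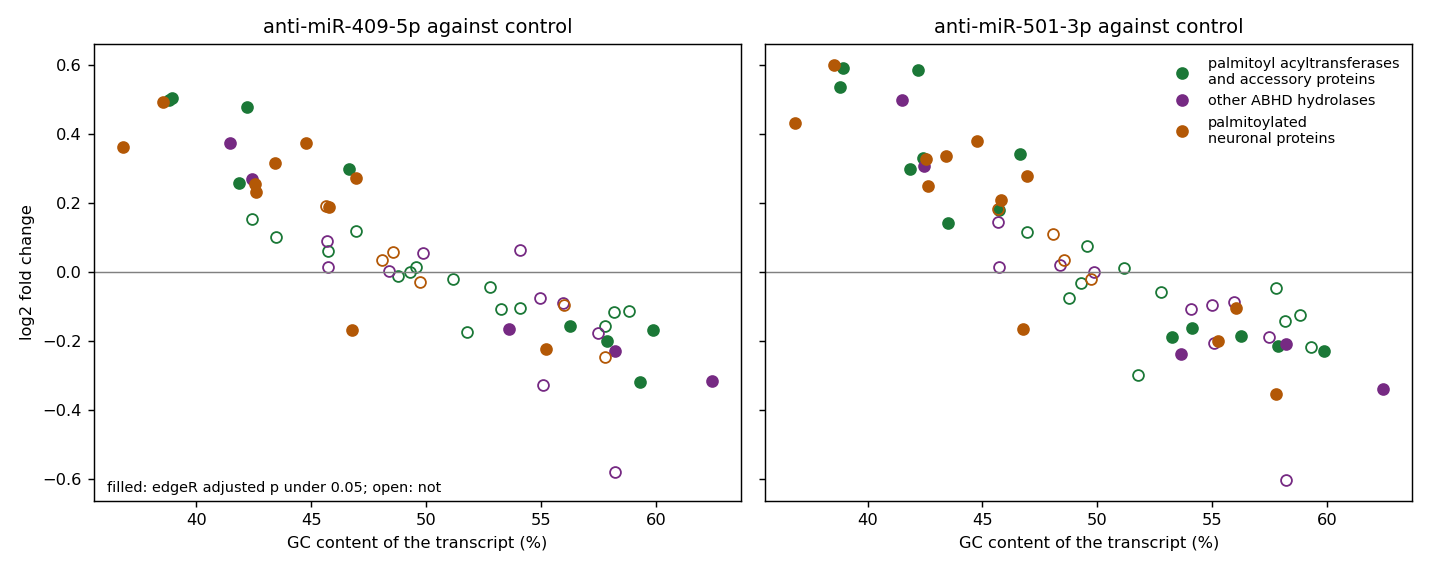
Log2 fold change against control (vertical axis) by GC content of the transcript (percent, horizontal axis) for tested acyltransferases and accessory proteins (green), other ABHD hydrolases (purple) and palmitoylated neuronal proteins (orange). Filled points passed an edgeR adjusted p of 0.05. Most genes of low GC content lie above 0 and most of high GC content below it in both panels, with Zdhhc2 at 0.48 and 0.59.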

How the data were processed

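The authors deposited 1 table of raw, unnormalized counts per Ensembl gene for each of 10 libraries. Per the labels' protocols, libraries were made from polyadenylated RNA with a TruSeq kit and sequenced as single-end reads. The build mm10 and the tools STAR 2.5.2b, Subread 1.5.1, featureCounts and FastQC 0.11.5 are named, without their roles, per the submitters' processing notes. The annotation, strand and multi-mapping settings are not given in the sources used here. The authors also deposited comparison tables, with log2 fold changes and adjusted p-values per the file headers, quoted for comparison alone since no tool is stated. The test score and the signal per library in these deposited tables (counts divided by 1 factor per library) were not used further.

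Counts were analysed in R 4.3.3 with edgeR 4.0.16 (filterByExpr, TMM, robust quasi-likelihood test, two-sided, Benjamini-Hochberg over 16884 genes), with the 3 groups fitted together and no covariate. A prior count of 2 was used for log2 CPM and for the GC and length trend. The SE was the size of the log2 fold change divided by the square root of the edgeR F statistic. The edgeR steps were tested on simulated data. Exon overlaps came from GENCODE vM21. The GC and length trend was fitted per library with splines of 5 degrees of freedom and entered as an offset. True differences between cells may be removed with it. Alternatives used DESeq2 1.42.0, sva 3.50.0, other scalings, no filter, only the groups compared, replicate numbers as a block and leaving out each library. The 7 genes, the lists, and the named-gene rule (all 7, overlapping and neighbouring genes, the 5 most like Lypla1, up to 4 of smallest p per list) were chosen with earlier results of these data known. A gene that the rule took is not reported here. The deviations of same-numbered libraries of the 2 anti-miR groups correlated in 4 of 4 pairs (r = 0.375, 0.164, 0.121 and 0.306). For the direct comparison the numbers were therefore taken to pair libraries, from the data and not the labels. The pairing is uncertain, since an unmatched pair reached r = 0.177.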

Additional observations from a re-analysis of the deposited data

Results flagged for a closer look

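Lypla1 in the anti-miR-501-3p group had a library apart from the others. Replicate 1, at 21.4 CPM, lay below replicates 2 to 4 (26.6 to 27.3 CPM), and the gap to its nearest neighbour was 0.872 of the range of the group, above the limit for 4 samples. Chance gives such a gap in about 1 of 20 groups. Replicate 1 also had the highest GC slope of its group, 0.00784 per 10 points of GC, against -0.0882 to -0.131 in the others, and the part of that slope in the gap was not tested.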

How the results depend on the processing

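Of 360 alternative log2 fold changes of the 6 genes other than Lypla1, 317 kept their side of the threshold, 27 no longer passed and 10 newly passed. Another 6 reversed, which means a turned sign where the main or the alternative fit passed. Sign changes where neither fit passed are among the 317. Lyplal1 under anti-miR-409-5p, for example, went from 0.0154 to -0.0655 with the GC and length trend removed. The reversals came with the GC and length trend removed, for Lypla2 (0.0356 under anti-miR-409-5p and 0.0615 under anti-miR-501-3p) and Abhd10 under anti-miR-501-3p (-0.0293), and with the replicate block added (Lypla2 0.00831 and 0.0324, Abhd10 -0.0660). Called genes among the 6 went from 3 to 1, 1 and 0 under anti-miR-409-5p and from 5 to 1, 1 and 3 under anti-miR-501-3p, with the GC and length trend removed, with the replicate block added to that, and with 1 surrogate variable. All genes called fell in that order to 908, 989 and 1017, and to 1355, 1458 and 3637. Lypla1 moved to 0.99 and 0.85 under anti-miR-409-5p with the trend removed and with the block added, and to 1.19 and 1.06 under anti-miR-501-3p. With a surrogate variable it was 1.11 and 1.52, and with the replicate block alone 1.28 and 1.57. In the direct comparison all genes called were 3 with DESeq2, 42 without the filter, 1 with only the groups compared, 252 with the replicate block, 2 with the GC and length trend removed and 183 with both. Leaving out each library gave 2 to 4 and 1 to 5 called among the 6, 1302 to 5111 and 1800 to 6075 over all genes, and 0 to 1 in the direct comparison. Lypla1 then ranged from 1.37 to 1.68 and from 1.73 to 1.85. The cause of these changes was not tested.

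Control shares 2 replicate numbers with each anti-miR group, too few to take as pairs, with correlations of 0.0423 to 0.359. Over all groups 7 of 10 libraries correlated best with their own number. With the replicate block, Abhd17a under anti-miR-409-5p stood at -0.21 (edgeR adjusted p = 1.32e-04) and Abhd10 under anti-miR-501-3p at 0.19 (0.0847). Depth limits the low genes, with 203 and 232 counts of Lypla1 in the controls.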
